A study of Mus musculus with 18 samples.

Results

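The colony-stimulating factor genes examined here are the growth factor gene Csf1 and 6 receptor genes, Csf1r, Csf3r, Csf2ra, Csf2rb, Csf2rb2 and Il3ra. They were chosen by symbol, as probe sets annotated to 1 of these symbols alone, and each had 1 probe set. Earlier results of these data were known at that choice, so counts of members or listed genes beside shares of all genes are descriptive. All 7 passed the filter on low values described with the processing, which left 13387 of 19938 genes for testing. The 18 arrays measured cells sorted from mouse bone marrow, with 9 arrays for monocytes with high surface Ly-6C, Ly-6C(hi), and 9 for neutrophils. All mice were C57BL/6 and carried floxed Zeb2 alleles, Zeb2(fl/fl), a gene that encodes a zinc-finger transcriptional repressor. The samples labelled Zeb2-deficient also carried Mx1-Cre(tg), a recombinase gene that interferon switches on, in blood cells and in other tissues. Each cell type was represented by 4 control arrays after poly(I:C), an interferon inducer given as 2 injections of 150 µg within 48 h, with marrow taken 3 weeks later. A further 4 arrays held samples labelled Zeb2-deficient after the same treatment, and 1 array held a control that was not treated. The controls lacked Cre, so Cre and loss of Zeb2 cannot be told apart. Whether the arrays within a group stem from different animals is not stated in the labels, and the p-values therefore reflect only the spread among these samples, possibly a technical one.

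Colony-stimulating factors are secreted proteins that keep myeloid progenitors alive and direct them into monocytes, macrophages and granulocytes. M-CSF, the product of Csf1, binds the receptor tyrosine kinase encoded by Csf1r, on which monocytes and macrophages depend. G-CSF binds the receptor encoded by Csf3r and drives granulocyte production. GM-CSF and IL-3 each bind an alpha chain of their own, encoded by Csf2ra and Il3ra, which pairs with a shared beta chain encoded by Csf2rb. The mouse has an additional, closely related beta chain gene, Csf2rb2, whose product serves IL-3 alone. The cytokine receptors signal through JAK kinases and STAT factors.

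The values are log2 intensities, and a difference of 1 is a 2-fold ratio of the measured signal. Levels of different genes are not compared, since probe sets differ in brightness. In control samples the sorted populations carried their own markers. The mean of 6 Ly-6C(hi) monocyte markers was 10.88 to 11.05 in control monocytes and 3.97 to 4.15 in control neutrophils, where Ms4a4c, Ms4a6c and Ly86 lay below the 40th percentile of every array. The mean of 8 neutrophil markers was 12.19 to 12.28 in control neutrophils and 6.08 to 7.52 in control monocytes. Zeb2 itself read 9.86 to 10.08 in control monocytes and 8.74 to 9.84 in monocytes labelled deficient. In neutrophils it read 6.86 to 7.54 in controls and 7.10 to 8.25 in samples labelled deficient, which runs against the label. The Zeb2 probe set summarises the whole transcript and does not check the deletion, and each direction given refers to the label. The arrays fall into an earlier and a later run of deposited arrays, here called set A (controls 1 to 3, deficient 1 and 2) and set B (controls 4 and 5, deficient 3 and 4). The labels do not say what the sets are.

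**Figure D1:**
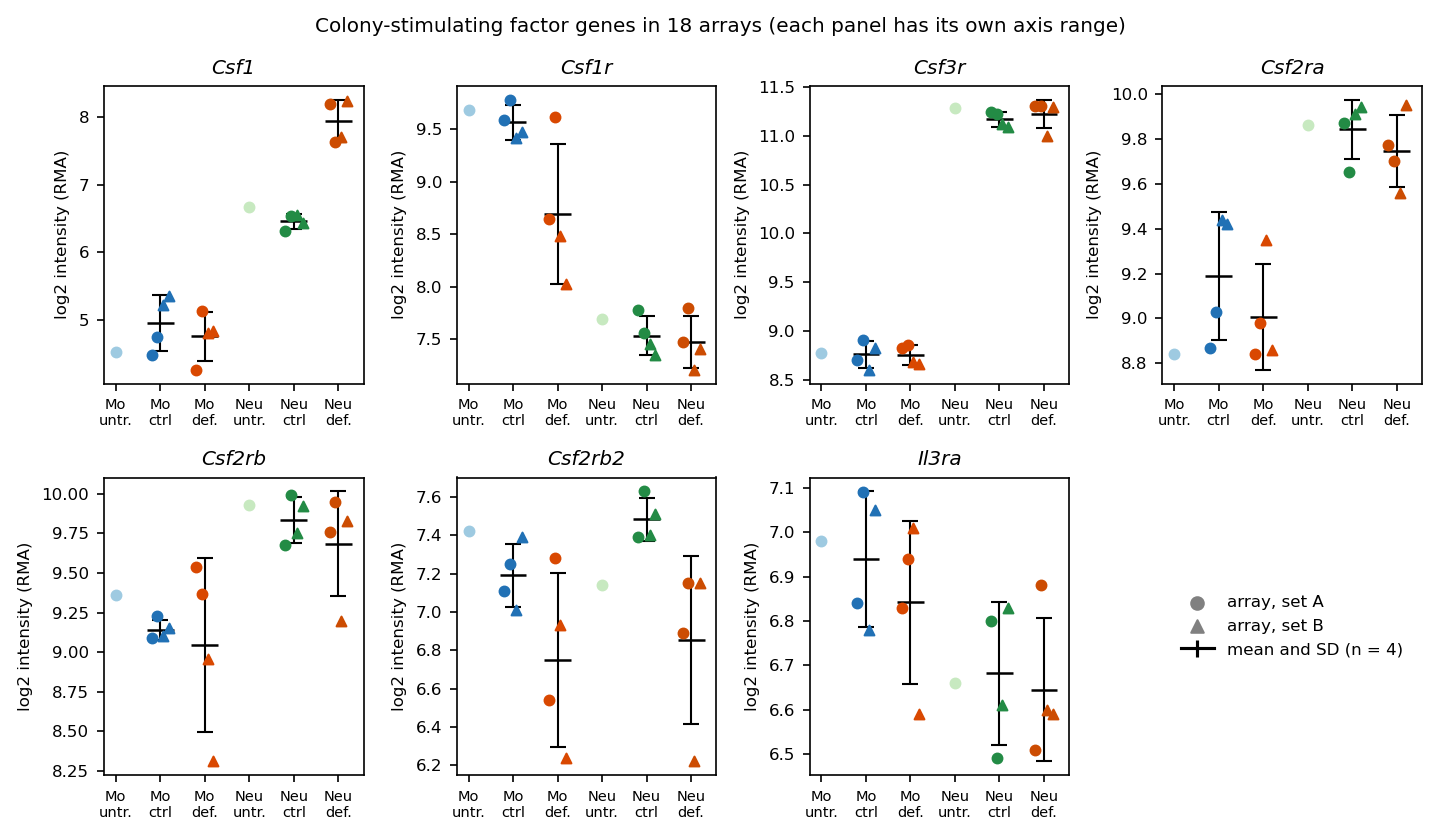
Log2 intensity (y axis) of Csf1 and the 6 receptor genes in each array, by cell type and group (x axis, Mo for monocytes, Neu for neutrophils; untr., untreated control; ctrl, poly(I:C) control; def., labelled Zeb2-deficient), with circles for set A, triangles for set B, and mean and SD where n = 4. Csf1 stands at 7.63 to 8.23 in the 4 deficient neutrophil arrays, above every other array, and Csf1r at 8.03 to 9.61 in the 4 deficient monocyte arrays.

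Control monocytes and control neutrophils were compared first, to place each gene in its cell type. Csf1r was higher in monocytes, and Csf1, Csf3r, Csf2ra and Csf2rb were higher in neutrophils. These are 5 of 7 members, against 58.6% of all genes tested, so the share itself is near the background. In the 2 directions, 1 member was higher in monocytes (background 29.9%) and 4 in neutrophils (background 28.7%). The same 5 members were those whose arrays did not overlap, against 56.2% of all genes.

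The ligand gene Csf1 read 4.48, 4.75, 5.22 and 5.36 in control monocytes and 6.31, 6.53, 6.55 and 6.44 in control neutrophils. Every neutrophil array lay above every monocyte array. The monocyte level was near the lower end of the tested range, the array's 40th percentile being 4.28 to 4.37 there. The difference, monocytes minus neutrophils, was -1.51 ± 0.20 (SE), which is 2.84-fold, with limma's adjusted p = 4.88e-06.

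Csf1r, the M-CSF receptor, showed the opposite pattern. It read 9.59, 9.78, 9.41 and 9.47 in control monocytes and 7.78, 7.56, 7.46 and 7.35 in control neutrophils. The groups were 2.03 ± 0.23 (SE) apart, or 4.07-fold, with no overlap (limma, adjusted p = 6.91e-07). Csf3r, the G-CSF receptor, read 8.70, 8.91, 8.60 and 8.83 in control monocytes and 11.24, 11.22, 11.12 and 11.09 in control neutrophils. Its difference of -2.41 ± 0.10 (SE), 5.31-fold in favour of neutrophils, ranked at place 49 by p among the 13387 genes (adjusted p = 1.44e-12). Control monocytes thus carried Csf3r signal well above the 40th percentile of their arrays.

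The receptor chains for GM-CSF differed less between the cell types. Csf2ra, the GM-CSF receptor alpha chain, read 8.87, 9.03, 9.44 and 9.42 in control monocytes and 9.87, 9.65, 9.91 and 9.94 in control neutrophils. The difference was -0.65 ± 0.15 (SE), 1.57-fold, without overlap (limma, adjusted p = 8.71e-04). Csf2rb, the shared beta chain, read 9.09, 9.23, 9.10 and 9.15 in monocytes against 9.68, 9.99, 9.75 and 9.92 in neutrophils. It differed by -0.69 ± 0.21 (SE), 1.62-fold, again without overlap (limma, adjusted p = 0.00812).

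The 2 genes tied to IL-3 alone overlapped between the cell types. Csf2rb2 read 7.01 to 7.39 in control monocytes and 7.39 to 7.63 in control neutrophils, a difference of -0.29 (95% interval -0.73 to 0.15, adjusted p = 0.238). With the arrays centred on their medians limma called Csf2rb2 lower in monocytes (-0.55, adjusted p = 0.0209), as it did with only the arrays compared in the fit (-0.29, adjusted p = 0.0409). Il3ra, the IL-3 receptor alpha chain, read 6.78 to 7.09 in monocytes and 6.49 to 6.83 in neutrophils, a difference of 0.26 (95% interval -0.01 to 0.53, adjusted p = 0.0916). Median centring moves all monocyte minus neutrophil differences by a median of -0.26 and takes Il3ra to -0.001. It also changes the split of all called genes, from 51.0% higher in monocytes to 30.1%, and quantile normalization gives 43.9%. Csf2rb and Csf2rb2 are neighbouring, closely similar genes, and how far their probe sets share signal was not tested.

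The windows before the start sites of members higher in control neutrophils are shown because these genes differ in the same direction between the cell types. RefSeq promoter entries (build GRCm38.p6) were matched for 5 of 7 members. Csf2rb, also higher in control neutrophils, had no entry, so its window is not shown. Each window holds the 250 bases before the annotated transcription start, 5′ to 3′ on the gene's own strand, in lower case. Capitals mark matches, on either strand, to GAGGAA (an ETS core bound by PU.1), TTNNGNAA (C/EBP-type site) or CACCT (the E2 box that Zeb proteins bind).
Csf1 (chr3:107760470-107760719, minus strand): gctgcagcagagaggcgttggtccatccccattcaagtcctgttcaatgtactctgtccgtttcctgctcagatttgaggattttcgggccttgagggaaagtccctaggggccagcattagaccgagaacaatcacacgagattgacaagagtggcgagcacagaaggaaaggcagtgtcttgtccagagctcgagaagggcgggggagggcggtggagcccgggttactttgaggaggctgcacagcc
Csf3r (chr4:126024409-126024658, plus strand): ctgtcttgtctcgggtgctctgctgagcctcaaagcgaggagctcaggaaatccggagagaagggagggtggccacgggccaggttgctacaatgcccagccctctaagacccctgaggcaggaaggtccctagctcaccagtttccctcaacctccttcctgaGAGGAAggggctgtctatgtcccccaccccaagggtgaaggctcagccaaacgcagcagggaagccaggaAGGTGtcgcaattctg
Csf2ra (chr19:61228419-61228668, minus strand): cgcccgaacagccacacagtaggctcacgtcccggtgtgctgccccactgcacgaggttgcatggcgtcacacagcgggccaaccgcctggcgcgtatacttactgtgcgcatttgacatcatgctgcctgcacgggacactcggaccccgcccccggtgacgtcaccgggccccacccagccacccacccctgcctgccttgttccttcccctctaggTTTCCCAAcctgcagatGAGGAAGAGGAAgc
The Csf1 window held no match to any of the 3 motifs. The Csf3r window held GAGGAA beginning 86 bases before the start and CACCT on the opposite strand 16 bases before it. The Csf2ra window held GAGGAA at 14 and 8 bases before the start, in direct succession, and TTNNGNAA on the opposite strand at 31 bases. None of the matches in these windows overlapped another. Of 32536 distinct promoter windows of the same length, 23.4% held GAGGAA, 36.8% TTNNGNAA and 46.1% CACCT, so matches of this kind are common and describe letters, not binding.

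In neutrophils labelled Zeb2-deficient, the gene for the growth factor M-CSF rose. Csf1 read 8.20, 7.63, 7.71 and 8.23 in these arrays, against 6.31, 6.53, 6.55 and 6.44 in the poly(I:C) controls and 6.67 in the untreated control. All 4 deficient arrays lay above all controls. Mean Csf1 was 7.94 ± 0.31 (SD, n = 4) against 6.46 ± 0.11 (SD, n = 4), a rise of 1.48 ± 0.20 (SE, 95% interval 1.06 to 1.91), or 2.80-fold, with limma's adjusted p = 0.00258.

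Few genes changed in neutrophils, and Csf1 was the only member among them. Limma called 16 of 13387 genes, 0.120%, of which 14 were higher (0.105%). Csf1 stood at place 5 by p and place 6 by size of change among all genes tested. The rise was 1.495 within set A (adjusted p = 0.297, with 2 arrays a group) and 1.47 within set B (adjusted p = 0.0107). Without any single neutrophil array it stayed between 1.39 and 1.59 with adjusted p of at most 0.0173.

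**Figure D2:**
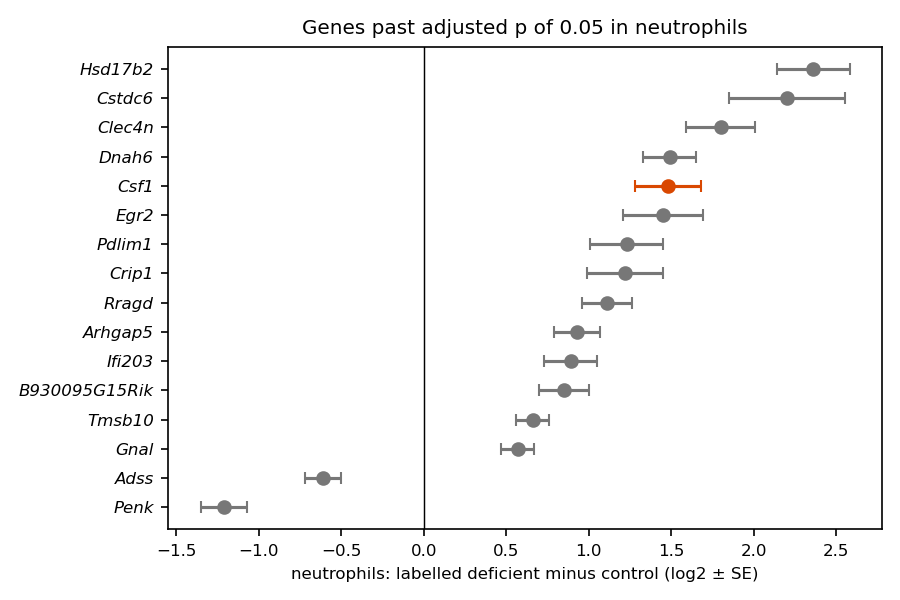
Change in neutrophils labelled Zeb2-deficient against poly(I:C) controls (x axis, log2, with SE) for the 16 genes past an adjusted p of 0.05 (y axis), Csf1 in orange. Csf1, at 1.48, lies among the 14 genes that rose, between Dnah6 at 1.49 and Egr2 at 1.45, and Penk and Adss fell by 1.21 and 0.61.

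Markers of other cells were read beside this rise. The neutrophil marker mean was 12.19 to 12.28 in controls and 12.11 to 12.23 in deficient neutrophils, and limma called 0 of 8 markers, none with an unadjusted p under 0.05. The monocyte marker mean was 3.97 to 4.15 and 3.95 to 4.32, with 0 of 6 called and 1 under an unadjusted p of 0.05, and Csf1 itself was lower in monocytes than in neutrophils. The means of 6 macrophage markers were 5.02 to 5.17 and 4.72 to 5.31. Those of 5 stromal and endothelial markers were 4.56 to 4.68 and 4.59 to 4.89, with Lepr below the 40th percentile of every neutrophil array. The promyelocyte marker mean was 4.76 to 5.10 in controls and 5.18, 4.77, 5.50 and 6.50 in deficient arrays 1 to 4. The mean of 4 eosinophil markers was 4.52 to 4.93 in controls and 4.72 to 5.36 in deficient arrays, and that of 5 mast cell and basophil markers 3.68 to 3.93 and 3.76 to 4.41. In each of these lists 2 markers were tested, and limma called 0 with 1 under an unadjusted p of 0.05 (medians 0.42 and 0.56). Epx, Cpa3, Fcer1a and Ms4a2 lay below the 40th percentile of every neutrophil array. Of the neutrophil arrays, deficient array 4 had the highest Csf1 and the highest promyelocyte, eosinophil, and mast cell and basophil means. Its monocyte, macrophage, and stromal and endothelial means, at 4.32, 5.31 and 4.89, were also the highest, as was its Zeb2, at 8.25. The part of these markers in the rise was not tested. Without deficient array 4 the Csf1 rise was 1.39 (limma, adjusted p = 0.0159).

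No receptor member passed the test in neutrophils. Csf2rb2 came nearest, at 6.89, 7.15, 6.22 and 7.15 in deficient arrays against 7.39, 7.63, 7.40 and 7.51 in controls. All 4 deficient arrays lay below the controls, and the difference was -0.63 (95% interval -1.07 to -0.19, unadjusted p = 0.00788, limma's adjusted p = 0.723). It was -0.42 without deficient array 3, the lowest, and -0.41 under the replicate block. The untreated neutrophil control, at 7.14, lay within the range of the deficient arrays. Csf1 and Csf2rb2 were thus 2 of 7 members whose groups did not overlap, against 3.43% of all genes.

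The other neutrophil receptors were close to their controls. Csf3r read 11.30, 11.30, 11.00 and 11.29 in deficient neutrophils, a difference of 0.05 with a 95% interval of -0.16 to 0.26. Csf1r read 7.48, 7.80, 7.21 and 7.41, a difference of -0.06 (interval -0.55 to 0.43). Csf2ra read 9.77, 9.70, 9.56 and 9.95, a difference of -0.10 (interval -0.40 to 0.21). Deficient array 3 was the lowest of its group for Csf3r, Csf1r, Csf2ra, Csf2rb and Csf2rb2. Csf2rb read 9.76, 9.95, 9.20 and 9.83 (difference -0.15, interval -0.58 to 0.28) and Il3ra 6.51, 6.88, 6.60 and 6.59 (difference -0.04, interval -0.31 to 0.23). Limma's adjusted p was 0.999 for each of these 5 genes, and the intervals leave room for changes of the sizes they span.

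In monocytes labelled Zeb2-deficient, the M-CSF receptor gene Csf1r fell, and Csf1 did not pass the test. Csf1r read 8.64, 9.61, 8.48 and 8.03 in the deficient arrays, against 9.59, 9.78, 9.41 and 9.47 in the poly(I:C) controls and 9.68 in the untreated control. Deficient array 2 lay within the control range and the other 3 below it. The means were 8.69 ± 0.67 (SD, n = 4) and 9.56 ± 0.16 (SD, n = 4). The fall was -0.87 ± 0.23 (SE, 95% interval -1.36 to -0.38), 1.83-fold, with limma's adjusted p = 0.0275. All deficient monocyte arrays still lay above the highest neutrophil array, at 7.80.

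Csf1r was 1 of 7 members called in monocytes, against 7.54% of all genes tested and 2.44% in the downward direction. The arrays of the groups did not overlap for 0 of 7 members, against 10.0% of all genes. The call did not hold with only the arrays compared in the fit (adjusted p = 0.110) or within set A, where the difference was -0.56 (adjusted p = 0.506), while set B gave -1.19 (adjusted p = 8.1e-04). It was also lost without control 1, 2 or 5 (-0.86, -0.80 and -0.90, adjusted p = 0.0637, 0.0863 and 0.0539) and without deficient 1, 3 or 4 (-0.86, -0.80 and -0.65, adjusted p = 0.0614, 0.0948 and 0.105). It held without control 4 (-0.92, adjusted p = 0.0458), and without deficient array 2 the difference was -1.18 (limma, adjusted p = 7.85e-05).

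Marker means also differed between the deficient and control monocyte arrays, and not all of them followed Csf1r array by array. The mean of the 6 monocyte markers was 10.35, 10.83, 10.11 and 9.71 in deficient arrays 1 to 4. Limma called 2 of 6 lower (median -0.78), and 6 of 6 had an unadjusted p under 0.05. The mean of the 8 neutrophil markers rose from 6.18, 6.08, 7.52 and 7.0 in the controls to 10.57, 9.52, 10.29 and 10.05, with 8 of 8 called higher (median 3.22). The mean of the 5 promyelocyte markers rose from 6.78, 6.50, 9.04 and 8.18 to 10.49, 8.87, 10.91 and 11.16, with 5 of 5 called higher (median 2.67). Among the other lists, 1 of 5 macrophage, 1 of 2 eosinophil, 1 of 2 stromal and endothelial and 1 of 3 plasmacytoid dendritic cell markers tested were called higher. Of 3 stem and progenitor cell markers tested, Kit was called higher and Flt3 lower, and all 3 had an unadjusted p under 0.05. The macrophage marker mean was 4.96 to 5.20 in controls and 5.25, 5.07, 5.62 and 5.65 in deficient arrays 1 to 4. Deficient array 2, with the highest Csf1r, had the highest monocyte and the lowest neutrophil and promyelocyte marker mean of its group. The neutrophil mean of array 2, at 9.52, still lay above every control. Deficient array 4, with the lowest Csf1r, had the lowest monocyte and the highest promyelocyte marker mean. Its neutrophil mean, at 10.05, lay below those of arrays 1 and 3, so the neutrophil markers did not follow the order of Csf1r. In bulk samples fewer cells of a type and less RNA per cell cannot be told apart, and the part of other cells in the Csf1r fall was not tested.

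**Figure D3:**
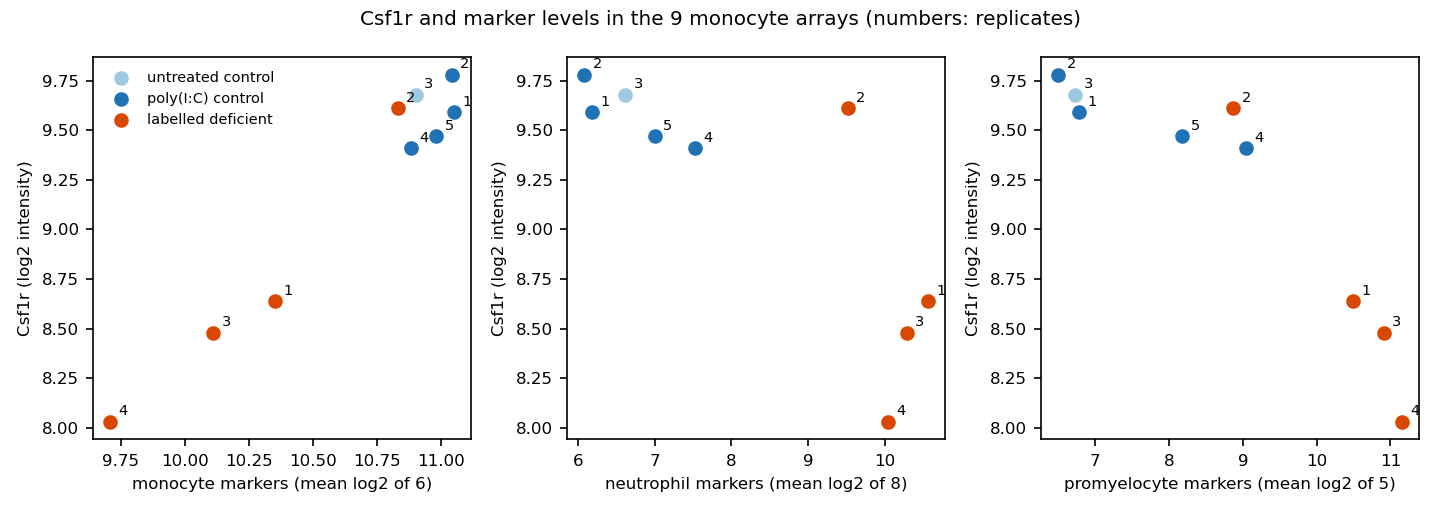
Csf1r (y axis, log2 intensity) against the mean log2 level of 6 monocyte, 8 neutrophil and 5 promyelocyte markers (x axes of the 3 panels) in the 9 monocyte arrays, each point an array numbered by replicate. Deficient arrays 1, 3 and 4 stand apart at a Csf1r of 8.03 to 8.64, and deficient array 2, at 9.61, lies at the Csf1r level of the controls.

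Csf3r had the same mean in both monocyte groups. It read 8.83, 8.86, 8.68 and 8.66 in deficient monocytes, with a mean of 8.76 ± 0.11 (SD, n = 4) against 8.76 ± 0.14 (SD, n = 4) in controls. The difference was -0.004, and its 95% interval of -0.22 to 0.21 bounds a change in either direction. Csf3r is 5.31-fold higher in control neutrophils. In the same arrays the neutrophil markers rose by a median of 3.22 and the promyelocyte markers by 2.67. The part of other cells in the Csf3r level was not tested.

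The remaining members did not pass in monocytes. Csf2rb2 read 6.54, 7.28, 6.93 and 6.24 in deficient monocytes against 7.11, 7.25, 7.01 and 7.39 in controls, a difference of -0.45 (95% interval -0.89 to -0.005, limma's adjusted p = 0.242). Without deficient array 2, the array that read within the control range, it was -0.62 and passed (adjusted p = 0.0436). Csf2rb read 9.54, 9.37, 8.96 and 8.31, spread on both sides of its controls, with a difference of -0.10 (interval -0.53 to 0.33). That difference was -0.49 in set B and 0.29 in set A, and neither passed.

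Csf2ra read 8.84, 8.98, 9.35 and 8.86 in deficient monocytes, a difference of -0.19 (interval -0.49 to 0.12), with set B above set A among the controls (means 9.43 and 8.95). Csf1 read 4.26, 5.13, 4.80 and 4.84 there, a difference of -0.19 (interval -0.62 to 0.23, adjusted p = 0.681). Il3ra read 6.83, 6.94, 7.01 and 6.59, a difference of -0.10 (interval -0.37 to 0.17, adjusted p = 0.746). The groups overlapped for each of these genes.

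**Figure D4:**
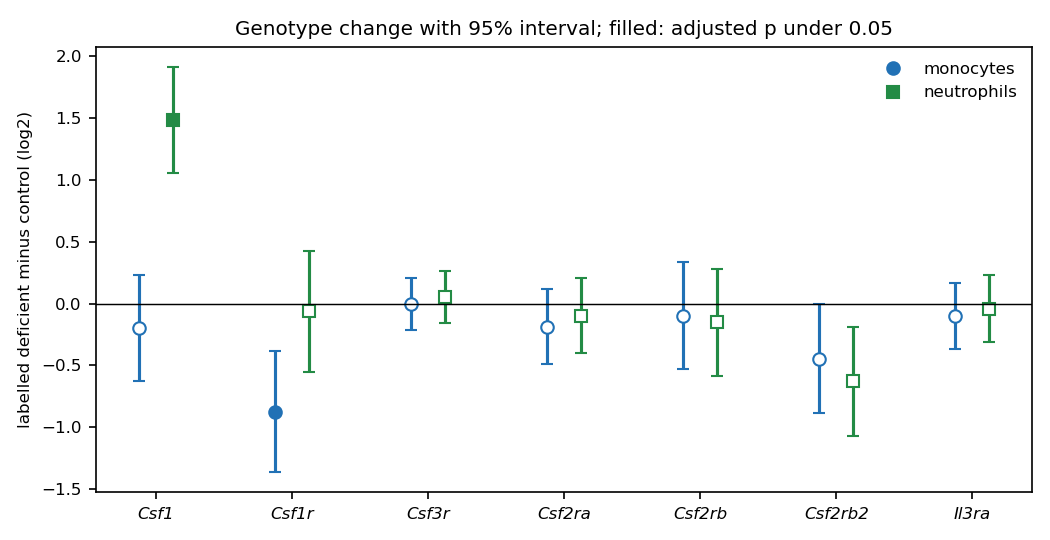
Change in samples labelled Zeb2-deficient against poly(I:C) controls (y axis, log2) for the 7 genes (x axis) in monocytes (blue circles) and neutrophils (green squares), with 95% intervals; filled symbols have an adjusted p under 0.05. Csf1 in neutrophils, at 1.48, and Csf1r in monocytes, at -0.87, are the filled symbols.

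The genotype changes of the cell types were then compared directly. The Csf1 change was lower in monocytes than in neutrophils, with a difference of -1.68 ± 0.29 (SE, 95% interval -2.28 to -1.07; limma, adjusted p = 0.00316). It was 1 of 7 members called, against 2.68% of all genes. The value was -1.41 within set A (adjusted p = 0.219) and -1.94 within set B (adjusted p = 0.00118). For Csf1r the difference of -0.81 ± 0.33 (SE) did not pass (interval -1.504 to -0.117, adjusted p = 0.264), so its fall is not shown to differ from the neutrophil value. It passed within set B (-1.09, adjusted p = 0.0205) and without monocyte deficient array 2 (-1.12, adjusted p = 0.00413). The other 5 members had adjusted p of 0.874 to 0.972.

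Ordered by group mean, Csf1 ran from deficient neutrophils (7.94) through control neutrophils (6.46) to control monocytes (4.95) and deficient monocytes (4.76), where the last 2 groups overlapped. Csf1r ran from control monocytes (9.56) through deficient monocytes (8.69) to control and deficient neutrophils (7.54 and 7.48), with overlap within each cell type. Csf3r was at 11.22 and 11.17 in deficient and control neutrophils and at 8.76 in both monocyte groups, and genotypes overlapped in each cell type. Csf2ra followed the order control neutrophils (9.84), deficient neutrophils (9.75), control monocytes (9.19) and deficient monocytes (9.0). Csf2rb had the same order, at 9.84, 9.69, 9.14 and 9.04, with deficient monocytes spread widely (SD 0.55, n = 4). For Csf2rb2 the order was control neutrophils (7.48), control monocytes (7.19), deficient neutrophils (6.85) and deficient monocytes (6.75). Il3ra differed least, from 6.94 in control monocytes to 6.64 in deficient neutrophils.

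Other genes of the pathway were read from 5 lists. Among ligands and related receptors, Csf2, Il3, Il5, Kitl, Il5ra and Pdgfra exceeded the 40th percentile on 0 of 18 arrays, Csf3 on 1 and Pdgfrb on 2. Of 12 listed genes 4 were tested. In monocytes labelled deficient, 1 rose and 1 fell, against 684 and 326 of all 13387 genes tested. Kit, the stem cell factor receptor, rose from 4.20, 4.57, 4.92 and 4.40 to 6.33, 5.40, 7.02 and 7.36, by 2.01 ± 0.30 (SE, limma, adjusted p = 2.56e-04). Kit was also lower in control monocytes (4.52) than in control neutrophils (6.05), by 1.53, while Flt3 was higher in control monocytes, by 1.55. Flt3, the receptor for the Flt3 ligand, fell from 6.11, 6.57, 6.46 and 6.07 to 5.14, 6.19, 5.43 and 4.95, by 0.88 (adjusted p = 0.0107), with deficient array 2 inside the control range. The Flt3 call was lost within set A and with only the arrays compared. In neutrophils limma called 0 of these 4 genes, with 0 under an unadjusted p of 0.05. The smallest p-values were those of Il34 (change 0.15, limma's unadjusted p = 0.260) and Kit (change 0.27, unadjusted p = 0.380). Both had an adjusted p of 0.999.

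Proximal signalling genes, the kinases, adaptors and STAT factors next to the receptors, were compared between control monocytes and control neutrophils first. Of 24 tested, 13 were lower and 2 higher in monocytes, against 28.7% and 29.9% of all genes, with a list median of -0.32 against -0.08 over all genes. Jak1, a kinase of cytokine receptors, was lower by 1.14, and Pik3ap1, an adaptor of PI3 kinase, by 0.98. Tyk2, another JAK kinase, was higher by 1.23 and the adaptor Gab1 by 1.09. Between genotypes, and against 684 of all 13387 genes tested, 1 of 24 rose in monocytes. This was Jak2, the kinase bound by the beta chain, which went from 7.61, 7.70, 7.42 and 7.37 to 8.41, 8.12, 8.0 and 8.01 without overlap. The rise was 0.61 ± 0.13 (SE, limma, adjusted p = 0.00693), and within set A adjusted p was 0.0636. In neutrophils limma called 0 of 24, with 1 under an unadjusted p of 0.05, Tyk2 at -0.38 (adjusted p = 0.813). Jak2 had the next smallest p there, with a change of 0.24 (limma's unadjusted p = 0.0848, adjusted p = 0.996).

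Negative regulators include the SOCS proteins, which the receptors induce and which block JAK kinases. Of 13 tested, 4 were lower and 2 higher in control monocytes, against 28.7% and 29.9% of all genes, and the list median was -0.15 against -0.08. Socs3, which acts on the G-CSF receptor, was lower by 1.40 and Cish by 0.98, while the ubiquitin ligase Cblb was higher by 2.84 and Adam17, a protease that sheds the M-CSF receptor, by 0.66. Between genotypes limma called 0 of 13 in either cell type, with 1 under an unadjusted p of 0.05 in monocytes (Cish, 0.32, adjusted p = 0.179) and 0 in neutrophils. Cblb was at -0.45 in monocytes (adjusted p = 0.319), and passed within set B (-0.69, adjusted p = 0.0475) and without deficient array 2 (-0.72, adjusted p = 0.0211). In neutrophils the smallest p-values were those of Socs1 (change -0.13) and Sla (change -0.18), both with limma's adjusted p = 0.999.

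Of 12 genes that the receptors are known to induce, 7 were lower and 2 higher in control monocytes, against 28.7% and 29.9% of all genes, with a list median of -0.33 against -0.08. The transcription factor gene Ets2 was lower by 3.55 and the cytokine gene Osm by 3.38, and Myc and the survival gene Bcl2 were higher by 1.84 and 1.0. In monocytes labelled deficient 2 rose and 1 fell, against 7.54% of all genes called. Myc, a growth regulator, rose from 6.05, 6.53, 6.36 and 6.22 to 7.45, 7.39, 8.06 and 8.40, by 1.54 ± 0.23 (SE, limma, adjusted p = 3.26e-04) with no overlap. Control neutrophils read lower for Myc, at 4.45, and the 5 promyelocyte markers rose in the same monocyte arrays by a median of 2.67. Ets2 rose by 0.83 (adjusted p = 0.0346), with overlap, and this call was lost within set A, with only the arrays compared, and without control 1, 2 or 5 or deficient 3 or 4. Mcl1, a survival gene, fell by 0.43 (adjusted p = 0.0250). The Mcl1 call was lost within set A, with only the arrays compared, with the replicate number as a block (-0.44, adjusted p = 0.0956), and without control 1, 4 or 5 or deficient 3 or 4. In neutrophils limma called 0 of 12, with 2 under an unadjusted p of 0.05, Ccnd2 at 0.48 and Osm at -0.36.

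The last list held transcription factors known to act on Csf1r or Csf3r. Of 9 tested, 4 were higher and 3 lower in control monocytes, against 29.9% and 28.7% of all genes, and the list median was -0.21 against -0.08. The monocyte factors Klf4 and Irf8 were higher by 3.38 and 2.86 and Cebpa by 0.87, and the granulocyte factor Cebpe was lower by 2.71. In monocytes labelled deficient 2 of 9 rose, against 684 of all 13387 genes tested. Cebpe went from 5.27, 6.04, 6.96 and 6.72 to 8.31, 7.57, 9.08 and 9.20, a rise of 2.29 ± 0.33 (SE, limma, adjusted p = 1.77e-04). Gfi1, a repressor needed for granulocytes, went from 5.17, 4.97, 5.16 and 5.20 to 6.06, 5.68, 6.50 and 6.66, a rise of 1.10 ± 0.16 (SE, adjusted p = 2.40e-04; 0.0583 within set A). Both groups of arrays stood fully above their controls. These rises, and those of Kit, Myc and Ets2, stand beside the rises of the 8 neutrophil and 5 promyelocyte markers in the same arrays. Over deficient arrays 1 to 4 the promyelocyte marker mean was 10.49, 8.87, 10.91 and 11.16, and Kit, Cebpe, Gfi1 and Ets2 took the same order, lowest in array 2 and highest in array 4, as did Myc. The neutrophil marker mean, at 10.57, 9.52, 10.29 and 10.05, took another order. Kit read 5.40 to 7.36 in deficient monocytes, 5.75 to 6.20 in control neutrophils and 5.96 to 6.58 in deficient neutrophils. Gfi1 read 5.68 to 6.66, 5.34 to 5.64 and 5.65 to 5.81 in the same groups. The part of either marker group in these rises was not tested.

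In neutrophils labelled deficient 1 of these 9 factors rose, against 0.105% of all genes tested. Egr2, an early growth response factor that acts in macrophages, read 5.72, 6.01, 5.0 and 5.05 in controls, with set B below set A, and 7.0, 7.34, 6.56 and 6.70 in deficient arrays. The rise was 1.45 ± 0.24 (SE, limma, adjusted p = 0.0111), without overlap. It was lost within set A, with only the arrays compared, and without deficient 1 or control 4 or 5, with adjusted p of up to 0.258. The change in monocytes differed from it by -1.62 (adjusted p = 0.0105; 0.304 within set A). Between the cell types the genotype changes also differed for Cebpe (2.35, adjusted p = 0.00717), Kit (1.74, adjusted p = 0.0283) and Gfi1 (0.91, adjusted p = 0.0368). Of these the Kit call was lost under 10 of 28 alternatives and the Gfi1 call under 15 of 28, most of them leaving out 1 array. Myc (1.15, adjusted p = 0.0755), Mcl1 (-0.45, adjusted p = 0.178) and Gab2 (-0.68, adjusted p = 0.242) did not pass, but did without monocyte deficient array 2 (adjusted p = 0.0187, 0.0269 and 0.0434), and Myc also without neutrophil control 5 (adjusted p = 0.0302). Jak2 (0.37), Cish (0.38) and Dok2 (0.25) did not pass, with adjusted p of 0.412, 0.412 and 0.529.

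**Figure D5:**
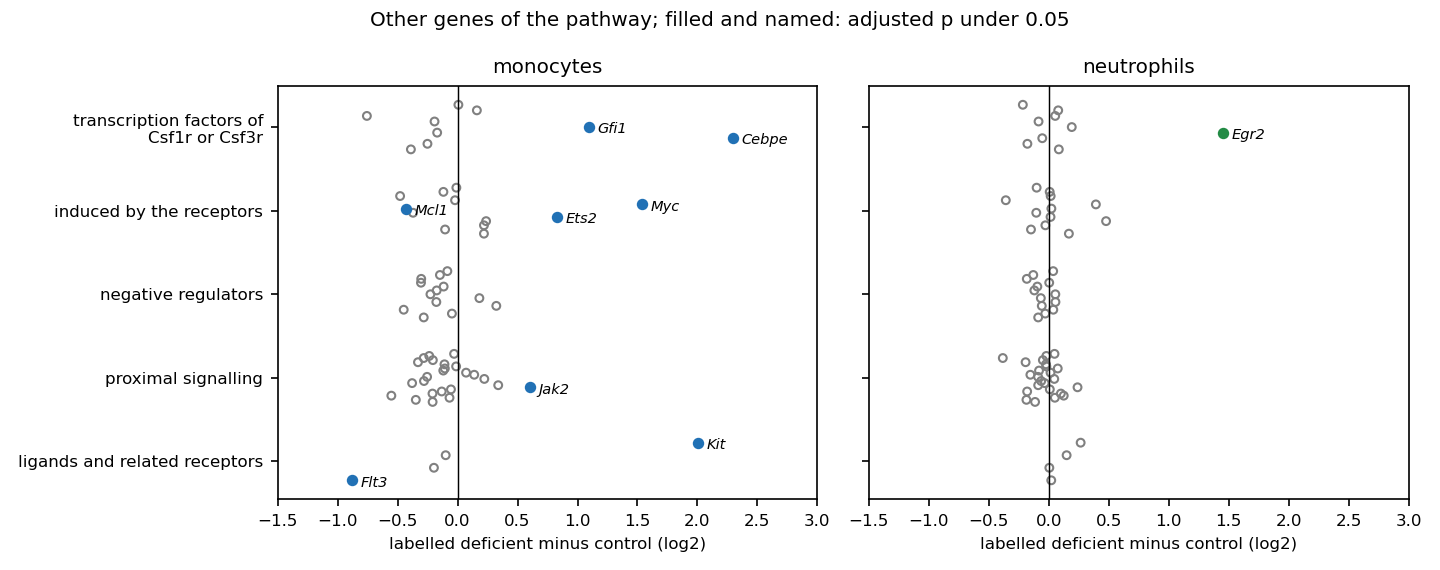
Change in samples labelled Zeb2-deficient against poly(I:C) controls (x axis, log2) for each tested gene of the 5 pathway lists (y axis), in monocytes and neutrophils; filled, named points have an adjusted p under 0.05 and open points do not. In monocytes Cebpe (2.29), Kit (2.01), Myc (1.54) and Gfi1 (1.10) stand furthest to the right, and in neutrophils Egr2 (1.45).

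Over the 18 arrays, the genes whose levels ran most like each member were read as a description, since the arrays share cell type and set. Csf1 was most like Wwtr1 (Pearson r = 0.962), Dnah6 (0.960) and Marcks (0.952), of which Dnah6 is also among the 16 genes called in neutrophils. Csf1r was most like Dusp7 (0.991), Pot1b (0.987) and Zfp385a (0.986), and Csf3r like Cd101 (0.995), Ptgs2 (0.994) and Mov10 (0.994). Csf2ra ran with Junb (0.956), Flii (0.955) and Gsk3a (0.945), and Csf2rb with Cap1 (0.952), Nadk (0.951) and Ddx5 (0.950). The closest genes to Csf2rb2 were Capg (0.923), Flvcr1 (0.858) and Gbp7 (0.826), and to Il3ra Vps33a (0.832), Rab12 (0.830) and Klc1 (0.824). Csf2rb and Csf2rb2, the paralogous beta chains, had r = 0.57 with each other.

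The untreated controls, 1 array per cell type and so without a test, read close to the poly(I:C) controls. Of 14 values, 8 lay inside the range of the 4 poly(I:C) arrays, 4 above and 2 below. The value furthest outside was Csf2rb2 in neutrophils, at 7.14, which is 0.25 below the range. For Csf1 in neutrophils the untreated value of 6.67 was 0.13 above the range, and for Csf1r in monocytes the value of 9.68 was inside it.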

How the data were processed

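Per the labels' protocols, RNA of the sorted cells came from RNAqueous-Micro extraction and Ovation PicoSL amplification, and was hybridised to Affymetrix Mouse Gene 1.0 ST arrays, as the probe annotation's header states. The authors deposited log2 intensities, 1 value per probe set, made with RMA according to the submitters' processing notes. Which program and background step were used is not given in the sources used here. RMA usually draws arrays processed together to a common distribution of probe intensities, so changes are then relative to the other genes. The deposited probe set values did not fully share a distribution. Their 40th percentile was 4.28 to 4.37 in monocyte arrays and 4.40 to 4.50 in neutrophil arrays. The lowest value was 1.05 and the highest 13.5, array medians lay at 4.81 to 4.92, and no pair of arrays was duplicated (highest correlation 0.990).

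Of 30177 probe sets, 21789 had 1 symbol and were used, 1621 had several and 6767 none. A gene with several was represented by its probe set of highest mean. Testing required a value above the 40th percentile of the array on 4 or more of 18 arrays. Some listed genes are not reported here.

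The tests used limma 3.58.1 (R 4.3.3), fitting 1 mean per group over 18 arrays, with a variance trend, 12 residual degrees of freedom and two-sided Benjamini-Hochberg adjusted p under 0.05 over all genes tested. The untreated arrays entered no contrast. The code was tested on simulated data. The number of arrays limits precision.

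The members and lists were chosen with earlier results of these data known. From each list, up to 4 called genes with the largest change were named per comparison, otherwise the 2 with the smallest p. For each member the 3 genes with the highest correlation were named. Control and deficient arrays of the same number and cell type deviated together from their group means (r = 0.183 to 0.428 over 6 pairs), against 0.127 to 0.348 for other pairs of the same array set. The pairing comes from the numbers in the titles. The block on these numbers rests on pairs 1, 2 and 4.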

Additional observations from a re-analysis of the deposited data

Results flagged for a closer look

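The Csf1 genotype change differed between the cell types by a direct test, at -1.68 for monocytes minus neutrophils. Csf3r in deficient neutrophils had 1 array far from the others: array 3 read 11.00 and its nearest neighbour 11.29, a gap of 0.939 of the group's range and past Dixon's 95% critical value. Of 28 groups of 4 arrays this was the only one past that value, and chance gives about 1 in 20.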

How the results depend on the processing

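Of 616 member results under the alternatives, 601 kept their side of the threshold, 10 lost and 5 gained a call, and 0 of those called reversed. The number of genes called in monocytes, 1010, was 500 with only the arrays compared, 1516 with the array set as a block, 215 in set A, 1724 in set B and 620 to 2001 without single arrays (621 and 620 without deficient 3 and 4, 2001 without deficient 2). The share of calls that were higher, 67.7%, was 79.4% with only the arrays compared and 89.3% in set A. Members called in monocytes, 1, were 0 with only the arrays compared and 0 in set A, and 0 to 2 without single arrays. In neutrophils 16 genes became 9 with only the arrays compared and 3 in set A, and 8 to 17 without single arrays (8 without deficient 1, 9 without control 4), and members called became 0 in set A. For the difference between cell types, 359 genes became 567 with the array set as a block, 72 in set A, 731 in set B and 245 to 904 without single arrays (904 without monocyte deficient 2), and the 1 member called became 0 in set A, 2 in set B, and 1 to 2 without single arrays. The cause of these moves was not tested. Both sets hold fewer arrays, set A with fewer calls and set B with more in monocytes and for the difference. For control cell types, 7034 to 7440 genes and 5 members were called without single arrays, against 7846 and 5. The replicate block left 688 genes called in monocytes and 11 in neutrophils, and of the genes named between genotypes the call of Mcl1 was the only one it changed. Across cell types the numbers do not pair the arrays (r = 0.059 to 0.259 over 8 pairs), and that block gave 407 and 7935 genes and called Myc for the difference between cell types (1.15, adjusted p = 0.0334, against 0.0755). The 4 arrays a group limit every value, and Csf1 in monocytes lies near the arrays' 40th percentile.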
